A study of Mus musculus with 5 samples.

Results

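Syntaxin 4 (*Stx4a*) and 8 genes of its fusion machinery were followed across the cell types of mouse interscapular brown adipose tissue (iBAT) by single-nuclei RNA sequencing (snRNAseq). The 9 genes were chosen by symbol for their known roles, when earlier results of these data were already known. All 9 were found among the 32285 genes of the feature lists. They are the syntaxins *Stx4a*, *Stx3* and *Stx6*, the SNAP family member *Snap23*, the vesicle proteins *Vamp2*, *Vamp3* and *Vamp8*, and the syntaxin-binding proteins *Stxbp3* and *Stxbp4*.

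SNARE proteins drive membrane fusion. A vesicle SNARE (a VAMP) zips together with a syntaxin and a SNAP protein on the target membrane, and the bundle pulls both membranes into contact. In fat and muscle cells, syntaxin 4 with SNAP23 forms the plasma membrane receptor at which VAMP2-bearing vesicles deliver the glucose transporter GLUT4 after insulin. The syntaxin-binding proteins Munc18c (*Stxbp3*) and Synip (*Stxbp4*) bind syntaxin 4 and regulate this step.

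The series holds 5 samples of iBAT from male mice, 1 library for each condition. At 3 months of age a control (WT) was set beside UCP1-STX4KO mice, in which a Cre recombinase driven by the *Ucp1* promoter removes a floxed *Stx4* allele in cells with an active *Ucp1* promoter. The WT animals of that cross were littermates that carried either the Cre transgene or the floxed alleles alone. C57BL/6J mice, with no transgene named in the labels, were sampled at 2, 12 and 24 months. Nuclei came from a homogenate tuned to enrich brown adipocyte nuclei and were sorted before loading, and how the 4 mice named in the methods were divided among libraries is not stated.

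The deposited data are 2 matrices of unique molecular identifier (UMI) counts, one for the 3-month pair and one for the aging set, in which barcode suffixes separate the libraries. No label ties a suffix to a genotype or an age. Libraries are therefore named here as 3-month 1 and 2 and aging 1, 2 and 3, no value is assigned to WT, knockout or an age, and no difference between libraries is a test of genotype or aging. With 1 library for each condition there is no p-value anywhere: levels carry exact Poisson 95% intervals and ratios exact binomial ones, which cover counting error only.

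The 3-month matrix held 20307 barcodes and the aging matrix 30000, with median depths from 891 to 5998 UMIs per barcode across the 5 libraries. Of those passing the lower limits (200 UMIs and 100 genes), 17635 of 20307 and 23010 of 27842 nuclei were gated into 7 types by marker genes. The labels call every sample brown adipocytes. Adipocyte-gated nuclei made up 91.6% and 49.3% of the 3-month libraries, but 7.04%, 3.93% and 1.33% of the aging libraries, in which endothelial-gated nuclei made up 31.0%, 74.1% and 82.3%. Libraries of the same matrix shared 23 barcode sequences at 3 months and 28 to 45 per pair in the aging set.

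Adipocyte markers were also detected in the other gates. The 8 adipocyte markers together stood at 5443 to 7333 counts per 1000000 UMIs (CPM) in adipocyte-gated nuclei. All 8 were found in each of the other gated types compared, except in the aging 1 Schwann nuclei (7 of 8), and they summed there to 1038 to 3091 CPM in the 3-month libraries and to 50.1 to 825 CPM in the aging libraries. The part of this in the levels below was not tested.

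*Stx4a* was found in every type, and *Stx3* was low in adipocytes, muscle and Schwann cells. *Stx6* was highest in adipocytes in most libraries, and *Stxbp3* was highest in macrophages. Promoter sequence is shown for these 4 members, which differ in where they were expressed. Each is the stretch directly upstream of the RefSeq start in GRCm38.p6, 5′ to 3′ on the gene's own strand, cut where a GENCODE M21 exon begins: chr7:127841558-127841763 (plus strand), chr19:11819404-11819653 (minus), chr1:155158453-155158702 (plus) and chr3:108840527-108840752 (minus). Capitals mark matches on either strand to the GC box GGGCGG, the CCAAT box, the TATA box TATAAA, the E-box CACGTG and the cAMP response element TGACGTCA, none of which overlapped another. The ETS motif CCGGAAG was also searched (6.91% of promoters) and was matched in no member.

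Stx4a: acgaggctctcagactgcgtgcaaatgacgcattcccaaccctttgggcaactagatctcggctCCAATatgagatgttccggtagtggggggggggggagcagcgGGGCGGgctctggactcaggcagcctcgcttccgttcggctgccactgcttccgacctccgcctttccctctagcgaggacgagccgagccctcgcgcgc

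Stx3: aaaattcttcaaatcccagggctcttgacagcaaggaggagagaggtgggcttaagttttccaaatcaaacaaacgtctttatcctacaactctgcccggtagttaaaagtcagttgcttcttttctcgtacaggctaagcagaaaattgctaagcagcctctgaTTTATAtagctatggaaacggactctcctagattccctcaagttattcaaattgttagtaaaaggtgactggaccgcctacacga

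Stx6: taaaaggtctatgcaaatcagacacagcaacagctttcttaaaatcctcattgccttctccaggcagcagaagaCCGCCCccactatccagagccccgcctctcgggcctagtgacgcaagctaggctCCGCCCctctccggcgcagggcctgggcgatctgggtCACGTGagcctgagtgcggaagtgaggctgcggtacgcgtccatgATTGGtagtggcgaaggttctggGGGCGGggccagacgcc

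Stxbp3: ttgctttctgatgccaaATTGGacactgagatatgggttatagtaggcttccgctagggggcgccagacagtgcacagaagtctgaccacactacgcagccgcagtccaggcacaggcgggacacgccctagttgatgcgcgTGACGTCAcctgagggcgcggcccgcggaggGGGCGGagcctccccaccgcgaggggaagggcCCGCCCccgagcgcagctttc

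In the whole 250-base windows, a GC box stood in the promoters of *Stx4a* (3 matches), *Stx6* (3), *Stxbp3* (2) and *Stxbp4* (1), against 32.7% of all 32851 promoters of that length; 1 of the 3 in *Stx4a* lies in the stretch shown. CCAAT was matched once each in *Stx4a*, *Stx6*, *Stxbp3* and *Snap23* (33.8% of promoters). The cAMP response element, held by 1.55% of promoters, was matched once, in *Stxbp3*, and the E-box (6.02%) once, in *Stx6*. *Stx3* had neither a GC box nor CCAAT but 1 match to TATAAA (12.4%). Its window held 6 CpG dinucleotides, the median of all promoters, and that of *Vamp8* held 3, while those of the other 5 members with a sequence held 16 to 25. These are matches of letters, not sites shown to be bound. Promoters of 7 of the 9 members were at hand, and those of *Vamp2* and *Vamp3* are not shown.

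*Stx4a* lies on chromosome 7 (GRCm38, 127824294 to 127849019, plus strand) and shares no bases with another gene model on its own strand. Whether counting used strand is not stated in the sources used here. It was the first gene to examine because the knockout targets it. In adipocyte-gated nuclei *Stx4a* stood at 60.2 CPM in 3-month 1 (58.4 to 62.0, 4284 UMIs in 10264 nuclei) and at 49.9 CPM in 3-month 2 (47.2 to 52.6, 1302 UMIs in 4486 nuclei). *Stx4a* reads were thus present in the adipocyte nuclei of both 3-month libraries, and neither was near 0. By RT-qPCR, the paper reports strongly reduced *Stx4a* mRNA in purified brown adipocytes of the knockout mice. The 3-month libraries were not set apart by such a loss, and why was not tested. A 3′ tag outside the deleted exons would still be counted, and the deleted part is not given in the sources used here, so these levels do not check the genotype.

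The ratio of *Stx4a* between these libraries (2 to 1) was 0.828 (0.778 to 0.881). This was small beside the spread over all genes: of 14901 genes with at least 50 UMIs, 39.7% were at least 1.5-fold lower in library 2 and 16.8% at least 1.5-fold higher. Counted per nucleus in place of per UMI the ratio was 0.695, and with every nucleus thinned to 500 UMIs it was 0.903. *Ucp1*, the uncoupling protein that makes brown fat produce heat, had a ratio of 0.836 (0.824 to 0.849) in the same nuclei.

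In the aging libraries, adipocyte-gated nuclei gave *Stx4a* levels of 46.7 CPM in library 1 (36.3 to 59.1, 69 UMIs), 66.8 in library 2 (50.7 to 86.3, 58 UMIs) and 73.0 in library 3 (46.8 to 109, 24 UMIs). The intervals of all 3 overlapped. The ratio of library 2 to 1 was 1.43 (0.991 to 2.06) and that of library 3 to 1 was 1.56 (0.939 to 2.52), so no difference was detectable at this depth, and changes of up to 2.06-fold and 2.52-fold lay within the intervals. With the upper limits of 2000 UMIs and 3000 genes stated in the methods, the ratio of library 3 to 1 fell to 0.695. That value rests on 45 nuclei of library 3 and 187 of library 1, each with few UMIs, and has no interval here. Without those limits, *Ucp1* had ratios to library 1 of 1.50 in library 2 and 0.437 in library 3 in the adipocyte-gated nuclei. The 8 endothelial markers summed to 107, 757 and 815 CPM in the adipocyte-gated nuclei of libraries 1, 2 and 3, all 8 detected in each, and their part in these ratios was not tested.

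*Stx4a* was broadly expressed. In the 3-month libraries 1 and 2 it stood at 78.0 and 83.1 CPM in macrophages, 67.8 and 78.5 in stromal cells, 60.2 and 85.3 in mural cells (pericytes and smooth muscle) and 49.6 and 37.3 in endothelial cells. Muscle nuclei, numerous enough in 3-month 2 alone, gave 30.6 CPM. Adipocytes had rank 4 of 5 types at 3 months, and the ranges of neighbouring types over libraries overlapped at every step except that adipocytes lay above endothelial cells. The adipocyte to endothelial ratios there, 1.21 (0.735 to 2.17) and 1.34 (0.887 to 2.12), had intervals that included 1.

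In the aging libraries 1, 2 and 3 *Stx4a* stood at 55.0, 52.3 and 54.8 CPM in stromal cells, at 48.7, 51.2 and 35.4 in mural cells and at 31.6, 43.1 and 29.96 in endothelial cells. Schwann cells, in library 1 alone, gave 34.5 CPM. Adipocytes ranked first there on the mean of libraries (62.1 CPM), but in library 1 they lay below stromal and mural cells, and of neighbouring ranks only stromal against mural cells had ranges that did not overlap. Endothelial cells were lowest of the types with several libraries in both matrices. In the aging libraries the adipocyte to endothelial ratios were 1.48 (1.07 to 2.03), 1.55 (1.16 to 2.03) and 2.44 (1.55 to 3.67), higher in adipocytes in all 3, of which library 1 fell short of 1.5-fold.

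**Figure D1:**
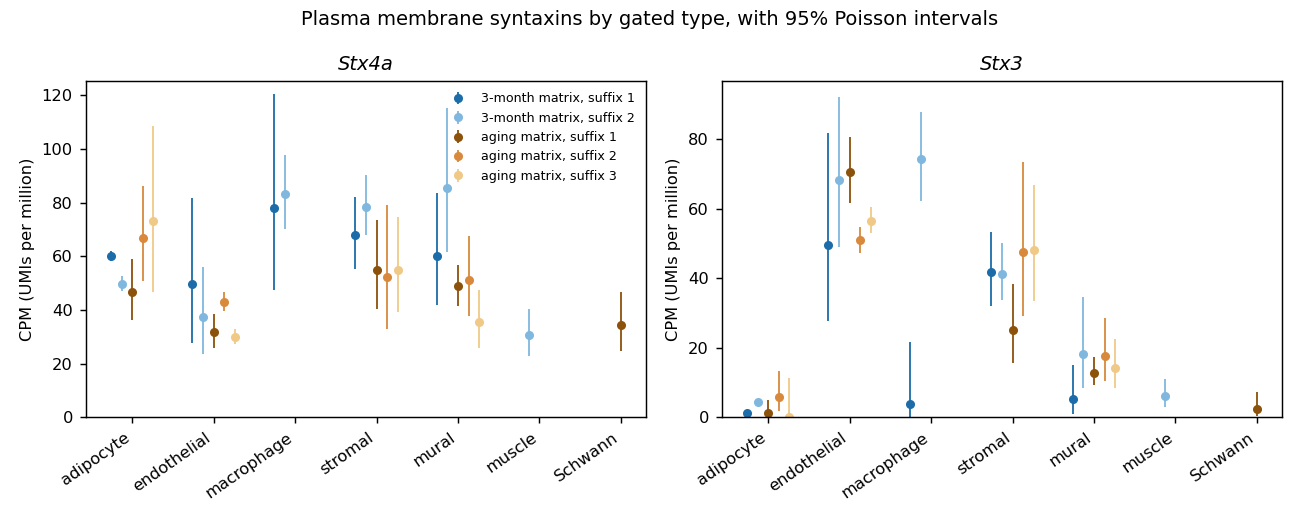
Levels of *Stx4a* (left) and *Stx3* (right) in CPM by gated nucleus type, 1 point for each library with at least 50 nuclei of the type, with exact 95% Poisson intervals. *Stx4a* lies between 29.96 and 85.3 CPM in every type, whereas *Stx3* in adipocytes lies between 0 and 5.76 CPM and in endothelial cells between 49.6 and 70.7 CPM.

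*Stx3*, a syntaxin best known from the apical membrane of polarised epithelia and from mast cell and neuronal exocytosis, was the lowest of the 9 genes in adipocytes of every library. Adipocyte-gated nuclei held 1.14 and 4.40 CPM at 3 months (81 and 115 UMIs) and 1.35, 5.76 and 0 CPM in the aging libraries (2, 5 and 0 UMIs). A count of 3 would be 9.12 CPM in aging library 3, and the exact interval of its 0 count reaches 11.2 CPM. Endothelial cells held 49.6 and 68.1 CPM at 3 months and 70.7, 50.9 and 56.6 CPM in the aging set.

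Every endothelial library lay above every adipocyte library for *Stx3*. The ratio of adipocytes to endothelial cells was 0.0230 (0.0131 to 0.0429) and 0.0646 (0.0450 to 0.0944) at 3 months and 0.0191 and 0.113 in aging 1 and 2. In aging 3, with 0 UMIs in the adipocytes, the exact interval of the ratio reached up to 0.199. Stromal cells held *Stx3* at 41.7 and 41.3 CPM at 3 months and 25.1, 47.5 and 48.0 CPM in the aging libraries, and mural cells held less (5.16 to 18.3 CPM). Muscle nuclei of 3-month 2 held 6.01 CPM, with an adipocyte to muscle ratio of 0.733 (0.385 to 1.57). Schwann cells of aging 1 held 2.47 CPM (3 UMIs). A low *Stx3* level was thus not particular to adipocytes.

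Macrophages did not give one *Stx3* level. They held 74.2 CPM in 3-month 2 (133 UMIs in 548 nuclei) but 3.90 CPM in 3-month 1 (1 UMI in 74 nuclei), a ratio of 19.0 (3.36 to 757). Beside this, the adipocyte markers summed to 1038 CPM in the macrophage-gated nuclei of library 2 and 2023 CPM in those of library 1, and their part was not tested. Adipocytes differed between the same libraries as well, with a *Stx3* ratio of 3.87 (2.89 to 5.21), and the stromal ratio was 0.989 (0.717 to 1.37). In adipocyte-gated nuclei the macrophage markers summed to 25.1 and 91.2 CPM in libraries 1 and 2, the stromal markers to 20.9 and 65.3 CPM, the endothelial to 9.96 and 24.2, the Schwann to 27.9 and 90.02 and the muscle to 7.91 and 111. All of these moved with *Stx3*, the mural markers (63.5 and 46.7 CPM) did not, and their part was not tested either.

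Between genes, levels were compared per kilobase of exon (GENCODE M21), with the reservation that a 3′ assay does not count in proportion to length. On this scale *Stx4a* led the members in adipocytes of every library, with 25.5 and 21.1 CPM per kb at 3 months and 19.7, 28.3 and 30.9 in the aging libraries. *Snap23*, its partner on the target membrane, came second with 18.4 and 18.8 and then 14.3, 9.92 and 12.7 CPM per kb. *Stx3* was last, between 0 and 1.01 CPM per kb. The order depends on the division by length: in undivided CPM *Stx6* was above *Stx4a* in every library, and *Snap23* was above it in 3 of 5.

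*Stx1a* and *Stx2*, which also work at the plasma membrane, were low in adipocytes as well. *Stx1a*, a neuronal and endocrine syntaxin, stood at 0.379 and 1.65 CPM in adipocytes at 3 months and at 1.35, 1.15 and 0 CPM in the aging libraries. *Stx2*, found in many tissues, stood at 2.81 and 8.50 CPM and then at 5.41, 5.76 and 9.12 CPM. Per kilobase of exon these were 0 to 0.618 for *Stx1a* and 0.613 to 1.99 for *Stx2*, all below the lowest *Stx4a* value.

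Stromal cells held *Stx2* at 44.1 to 68.9 CPM and *Stx1a* at 23.9 to 38.0 CPM over the 5 libraries.

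*Stx6*, a syntaxin of the trans-Golgi network and endosomes that takes part in GLUT4 sorting, was the one member that ranked first in adipocytes in both matrices. Adipocytes held 86.6 and 85.0 CPM at 3 months and 105, 92.1 and 116 CPM in the aging libraries. Mural cells held 39.5 and 56.8 CPM, and 38.6, 38.6 and 30.7 CPM. Adipocytes were above mural cells in all 5 libraries, with ratios of 2.19, 1.49, 2.71, 2.38 and 3.76, of which the 3 aging ones passed 1.5-fold together. Macrophages in 3-month 2 lay beside adipocytes (85.9 CPM, ratio 0.989, 0.840 to 1.17).

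**Figure D2:**
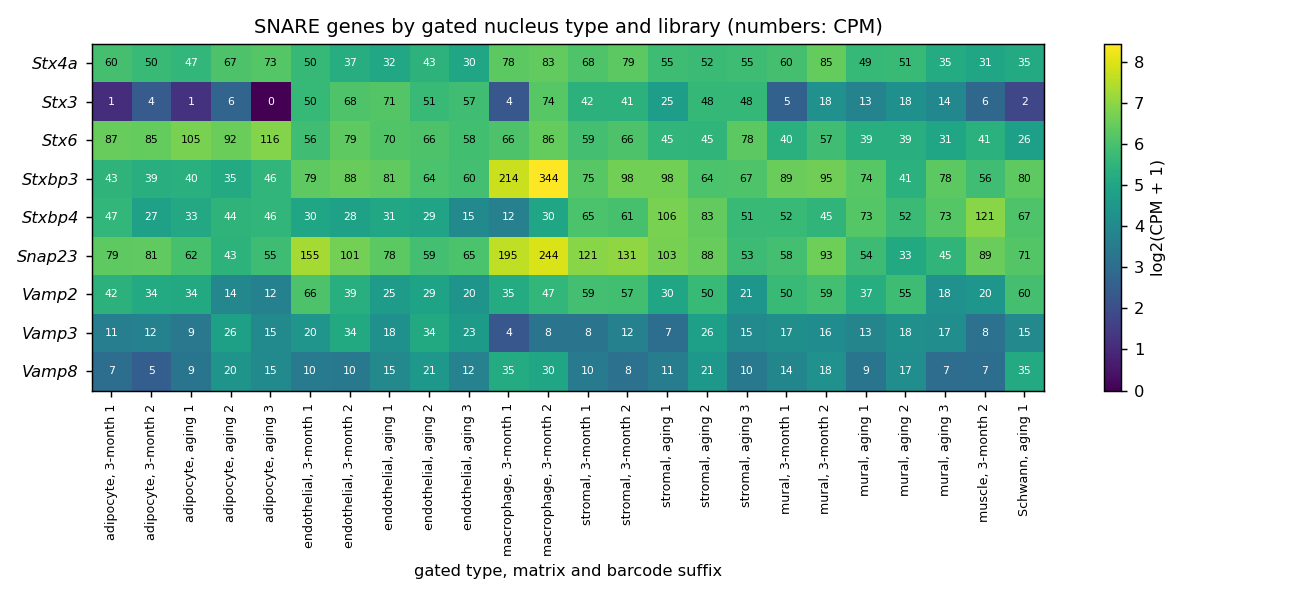
Heat map of the 9 genes (rows) by gated type, matrix and barcode suffix (columns, libraries with at least 50 nuclei of the type), coloured by log2(CPM + 1) with the CPM printed in each cell. The *Stx3* row is dark in the 5 adipocyte columns (0 to 5.76 CPM). It is also dark in Schwann cells, in muscle, and in the macrophages and mural cells of 3-month 1. The *Stxbp3* and *Snap23* rows are brightest in the 2 macrophage columns.

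*Snap23* was highest in macrophages, at 195 and 244 CPM, against 79.1 and 80.9 CPM in adipocytes of the same 3-month libraries. Endothelial cells (155 and 101 CPM) and stromal cells (121 and 131 CPM) lay between, and mural cells (58.4 and 93.4 CPM) overlapped adipocytes. In the aging libraries stromal cells held 103, 87.9 and 53.5 CPM and adipocytes 61.6, 42.6 and 54.7 CPM. The stromal excess was thus present in aging 1 and 2 and not in aging 3, where the ratio was 1.02 (0.551 to 1.83).

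Of the vesicle SNAREs, *Vamp2*, the one of GLUT4 vesicles, stood at 41.5 and 34.4 CPM in adipocytes and 58.7 and 57.3 CPM in stromal cells at 3 months, and was not called against any type with several libraries. Within aging adipocytes it was 33.8, 13.8 and 12.2 CPM (50, 12 and 4 UMIs), with ratios to library 1 of 0.409 (0.198 to 0.778) and 0.360 (0.0943 to 0.980). Mural cells did not follow that order: they held 36.9, 55.4 and 18.1 CPM.

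*Vamp3* (cellubrevin), which serves endosomal recycling, was led by endothelial cells in every library, at 19.8 and 34.1 CPM at 3 months and 17.7, 34.1 and 23.3 CPM in the aging libraries. Adipocytes held 11.2 and 12.1 CPM, and then 9.47, 26.5 and 15.2 CPM. The whole *Vamp3* gene lies inside the same-strand gene *Camta1*, so its counts are less certain. *Vamp8*, the endosomal and granule SNARE, was highest in macrophages at 3 months (35.1 and 30.1 CPM, from 9 and 54 UMIs) against 7.27 and 4.75 CPM in adipocytes. Schwann cells of aging 1 reached 34.5 CPM, against 8.79 in adipocytes.

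*Stxbp3* (Munc18c), the regulator that binds syntaxin 4 itself, was lower in adipocytes than in each other type of every library. Adipocytes held 43.3 and 38.6 CPM at 3 months and 39.9, 34.5 and 45.6 CPM in the aging set. Macrophages held 214 CPM (162 to 279) in 3-month 1 and 344 CPM (317 to 372) in 3-month 2. The ratio of adipocytes to macrophages was 0.202 (0.155 to 0.269) and 0.112 (0.102 to 0.124).

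Against endothelial cells the *Stxbp3* ratio was 0.546 and 0.441 at 3 months and 0.491, 0.536 and 0.766 in the aging libraries. Adipocytes were lower in all 5, but in aging 3 the interval (0.427 to 1.27) included no difference. Against stromal cells all 5 ratios lay between 0.393 and 0.679, again with an interval that included 1 in aging 3 alone.

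*Stxbp4* (Synip), which binds syntaxin 4 and releases it on insulin signalling, had another order. Muscle was highest, at 121 CPM in 3-month 2 (105 to 139), and stromal cells followed with 64.6 and 61.3 CPM. Adipocytes held 46.8 and 27.3 CPM, and macrophages 11.7 and 30.1 CPM. In the aging libraries stromal cells held 106, 83.2 and 50.7 CPM and adipocytes 33.1, 43.8 and 45.6 CPM. Stromal cells were above adipocytes in all 5 libraries, by very different amounts (adipocyte to stromal ratios of 0.311 to 0.899).

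**Figure D3:**
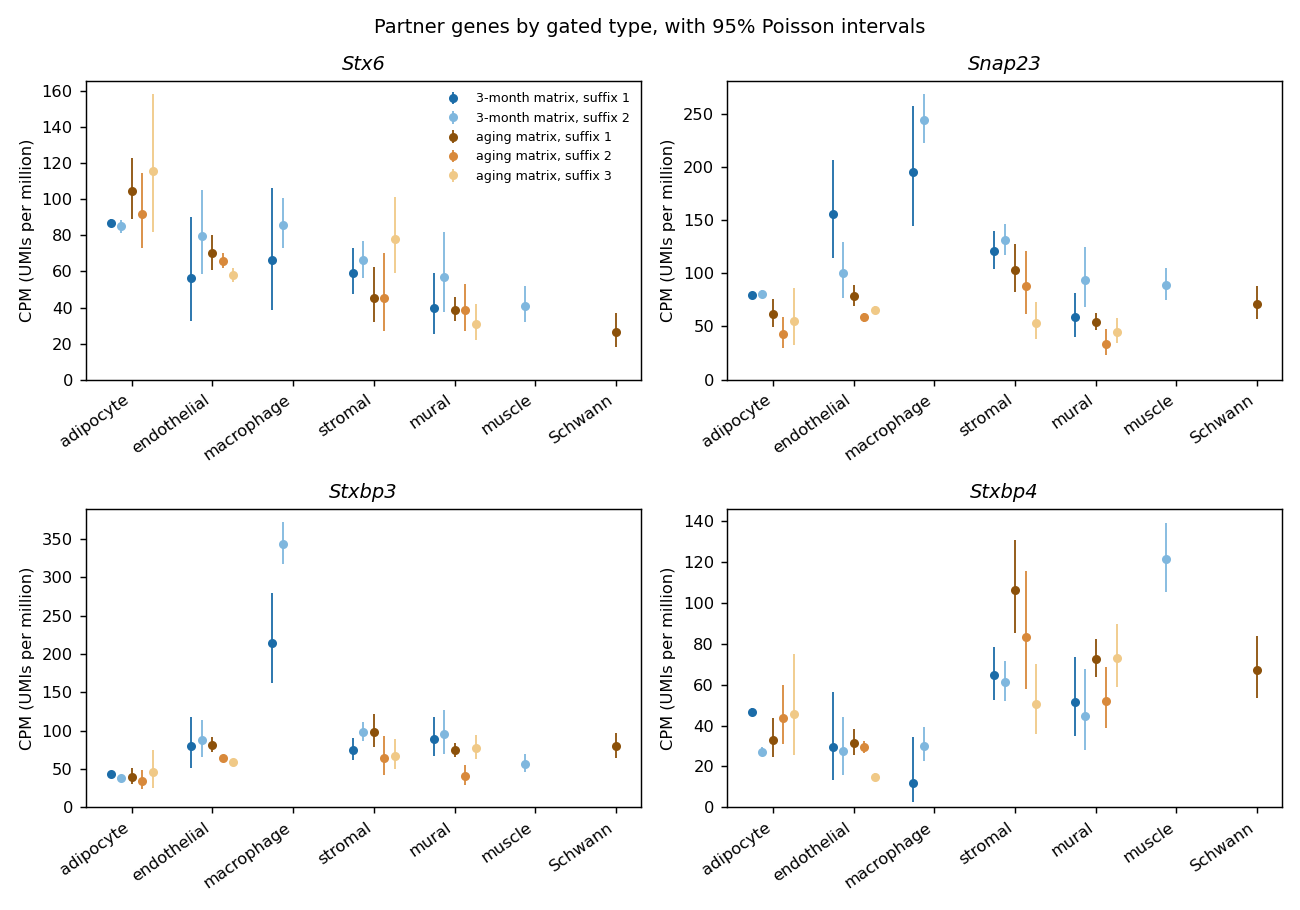
Levels in CPM of *Stx6*, *Snap23*, *Stxbp3* and *Stxbp4* by gated type, 1 point for each library with exact 95% Poisson intervals. Adipocyte points are the highest of their library for *Stx6* in 4 of the 5 libraries, macrophage points stand at 195 to 344 CPM for *Snap23* and *Stxbp3*, and the muscle point for *Stxbp4* is at 121 CPM.

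Counted together, a gene was called where it was at least 1.5-fold apart in the same direction in every library of the matrix with 50 nuclei of both types, among genes with 50 UMIs. At 3 months, 0 of the 9 genes were higher in adipocytes than in endothelial cells (19.5% of all genes tested) and 3 were lower (17.8%): *Stx3*, *Stxbp3* and *Vamp3*. Against macrophages 0 were higher (23.3%) and 4 lower (19.2%): *Stx3*, *Stxbp3*, *Snap23* and *Vamp8*. Against stromal cells 0 were higher (17.4%) and 3 lower (21.1%), *Stx3*, *Stxbp3* and *Snap23*. Against mural cells 0 were higher (22.5%) and 3 lower (18.1%), *Stx3*, *Stxbp3* and *Vamp8*.

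The shares lower in adipocytes, 3 or 4 of 9, lie above the background shares, and those at 0 lie below them, on a list of 9 genes. *Stx3* and *Stxbp3* were called in all 4, although the *Stx3* ratio to macrophages of library 1 rests on 1 macrophage UMI. The median log2 ratio of the 9 genes was -0.66 against endothelial cells, -0.57 against macrophages, -0.66 against stromal cells and -0.54 against mural cells, beside -0.24, -0.17, -0.11 and -0.17 for all genes tested. Against muscle, with 3-month 2 alone, 4 were higher in adipocytes (44%): *Stx4a*, *Stx6*, *Vamp2* and *Vamp3*, and 2 were lower (18.1%): *Stxbp4* and *Vamp8*.

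In the aging matrix fewer were called. Against endothelial cells 0 were higher (19.7%) and 1 lower (19.4%). Against stromal cells 0 were higher (19%) and 1 lower (18%), and against mural cells 1 was higher (19.8%) and 1 lower (18.3%). The lower gene was *Stx3* each time and the higher one *Stx6*. These shares are below the background. The median log2 ratio of the 9 genes was -0.33, -0.58 and 0.03 in these 3 comparisons, beside 0.11, 0.05 and 0.10 for all genes tested. Against Schwann cells of library 1, of 7 members with enough UMIs, *Stx6* was higher (41.6%) and *Stxbp3*, *Stxbp4*, *Vamp2* and *Vamp8* were lower (28.4%).

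The wider fusion machinery was described on 74 genes, the 9 included. Without the 9, of 63 genes tested against endothelial cells at 3 months, 9 were higher in adipocytes (19.5% of all genes) and 12 lower (17.8%), and in the aging matrix 16 were higher (19.7%) and 13 lower (19.4%) of 63. Against stromal cells 8 were higher (17.4%) and 13 lower (21.1%) of 64 at 3 months, and 10 were higher (19%) and 11 lower (18%) of 57 in the aging matrix. Against macrophages, at 3 months, 8 were higher (23.3%) and 18 lower (19.2%) of 63. Against mural cells 8 were higher (22.5%) and 10 lower (18.1%) of 63 at 3 months, and 10 (19.8%) and 8 (18.3%) of 59 in the aging matrix. Against muscle of 3-month 2, 23 were higher (44%) and 7 lower (18.1%) of 59. Against Schwann cells of aging 1, 20 were higher (41.6%) and 3 lower (28.4%) of 43. Most of these shares are near or below those of all genes, but the share lower than in macrophages is above. The medians against endothelial and stromal cells, -0.12 and -0.18 log2 at 3 months, lay beside those of all genes tested (-0.24 and -0.11).

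Of the 11 GLUT4 vesicle traffic genes, 4 were higher in adipocytes than in stromal cells and 1 was lower, in each matrix. Of all genes, 17.4% and 21.1% were so at 3 months and 19% and 18% in the aging set. At 3 months 3 were higher and 3 lower against endothelial cells (19.5% and 17.8% of all genes). The counts were 2 and 2 against macrophages (23.3% and 19.2%) and against mural cells (22.5% and 18.1%). In the aging matrix 5 were higher and 2 lower against endothelial cells (19.7% and 19.4%), and 3 and 1 against mural cells (19.8% and 18.3%). *Slc2a4*, which encodes GLUT4, stood at 112 and 88.9 CPM in adipocytes at 3 months and at 75.8, 87.5 and 79.1 CPM in the aging libraries, against 52.2, 30.5, 5.98, 7.13 and 2.74 CPM in stromal cells. *Tbc1d4* (AS160), the insulin-regulated brake on GLUT4 vesicles, stood at 309 to 910 CPM in adipocytes and 59.4 to 252 CPM in stromal cells. Its relative *Tbc1d1* had the opposite order, with 4.47 to 19.6 CPM in adipocytes and 503 to 740 CPM in mural cells.

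*Sort1* (sortilin, a sorting receptor of GLUT4 vesicles) stood at 183 to 258 CPM in adipocytes and 8.23 to 112 CPM in stromal cells. *Ralgapa2*, a subunit of the complex that restrains RalA, was called higher in adipocytes against all 4 types at 3 months and all 3 in the aging matrix, for example 1978 and 2062 CPM against 949 and 727 CPM in endothelial cells at 3 months.

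Of the Sec1/Munc18 and syntaxin-binding genes, *Stxbp3* and *Stxbp4* included, 5 of 12 were lower in adipocytes than in stromal cells at 3 months (21.1% of all genes) and 1 higher (17.4%). *Stxbp6* (amisyn, which binds SNARE complexes) stood at 3.05 and 3.64 CPM in adipocytes at 3 months and 194 and 34.1 CPM in stromal cells. *Stxbp2* (Munc18-2) was the higher one, at 17.3 to 39.5 CPM in adipocytes and 0 to 9.62 CPM in stromal cells.

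Between the 3-month libraries, adipocyte-gated nuclei differed by 1.5-fold or more in 3 of the 9 genes. *Stx3* was higher in library 2 (16.8% of all genes were), and *Stxbp4* and *Vamp8* were lower (39.7% were), with ratios of 0.582 (0.536 to 0.631) and 0.654 (0.533 to 0.796). *Stx6* (0.981), *Snap23* (1.02) and *Vamp3* (1.08) had intervals that included 1. Both counts are at or below the background share.

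Among aging adipocytes the share of genes past 1.5-fold was 12% higher and 25.6% lower in library 2 than in library 1, and 11% and 23.3% in library 3. Of 6 members with enough UMIs, *Vamp2* was lower in both, and *Stx4a* was higher in library 3 by 1.56-fold with an interval that included 1.

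Outside adipocytes, *Stx4a* was called between libraries in no type, with ratios between 0.726 and 1.42. At 3 months (library 2 to 1) 0 of 4 members with enough UMIs were higher in endothelial cells (17.9%) and 1 lower (16.1%), *Snap23*. In macrophages 3 of 8 were higher (18.3%), *Stx3*, *Stxbp3* and *Stxbp4*, and 0 lower (19.7%). In stromal cells 0 of 7 were higher (14.4%) and 0 lower (23.4%), and in mural cells 1 of 6 was higher (12.8%), *Snap23*, and 0 lower (12.8%).

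In the aging set, endothelial cells of library 2 had 1 of 9 members higher than in library 1 (14.3%), *Vamp3* at 1.92 (1.45 to 2.59), and 0 lower (20%). Those of library 3 had 0 higher (8.75%) and 1 lower (24.6%), *Stxbp4* at 0.476 (0.374 to 0.609). *Stxbp4* was lower in stromal cells of library 3 as well, at 0.477 (0.316 to 0.707), while its mural ratio was 1.01 (0.786 to 1.29).

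Stromal cells of library 2 had 0 of 5 members higher (11.5%) and 1 lower (21.7%), *Stxbp3*. Those of library 3 had 2 of 6 higher (13.9%), *Stx3* and *Stx6*, and 2 lower (19.9%), *Stxbp4* and *Snap23*. Mural cells of library 2 had 1 of 8 higher (15.5%), *Vamp2*, and 2 lower (14.4%), *Stxbp3* and *Snap23*, and those of library 3 had 0 higher (11.7%) and 1 lower (11.6%), *Vamp2*.

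**Figure D4:**
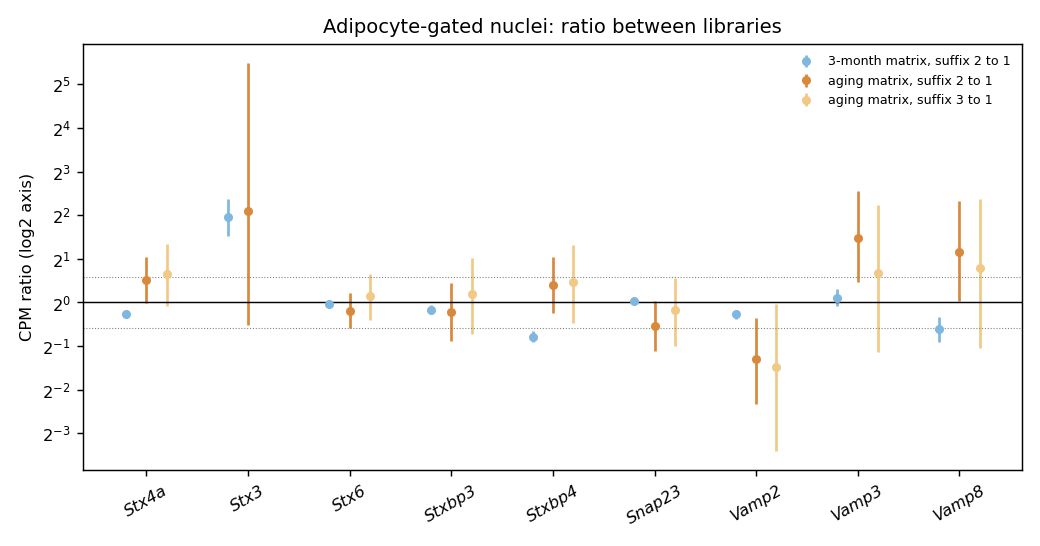
Ratio of CPM between libraries in adipocyte-gated nuclei for the 9 genes (log2 axis), with exact 95% binomial intervals; dotted lines mark 1.5-fold either way. *Stx3* is left out for aging 3 to 1, where it has 0 UMIs in library 3. At 3 months *Stx3* stands at 3.87 and *Stxbp4* at 0.582, and *Stx4a* at 0.828.

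The study sets a cluster of brown adipocytes low in *Ucp1* beside one high in it. It reports a lower average *Stx4a* UMI count in the low cluster, which was also reduced in brown adipocyte markers. Those clusters were not rebuilt here. The classes below come from the adipocyte marker gate and a *Ucp1* share, need not hold the same nuclei, and so do not test that result. Adipocyte-gated nuclei with at least 2000 UMIs were classed by their share of *Ucp1* UMIs, below 0.25 of the library's median (*Ucp1*-low) or at least 0.5 of it (*Ucp1*-high), so *Ucp1* itself is no result. *Stx4a* stood at 59.5 CPM in 1220 *Ucp1*-low nuclei and 59.9 CPM in 7648 *Ucp1*-high nuclei of 3-month 1, a ratio of 0.994 (0.901 to 1.09). In 3-month 2 it stood at 46.3 CPM in 1131 nuclei and 49.8 CPM in 2453 nuclei, a ratio of 0.929 (0.815 to 1.06).

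The intervals of both libraries included 1, with lower bounds of 0.901 and 0.815. The classes rest on few *Ucp1* UMIs, on average 0.620 and 0.111 per *Ucp1*-low nucleus in 3-month 1 and 2. A nucleus can therefore enter the low class through sampling alone. The intervals do not cover this, so the bounds do not limit the difference between true low and high cells. The classes also differed in other brown fat genes, more so in 3-month 2. The low to high ratios of *Ppargc1a*, *Dio2* and *Cidea* were 0.215, 0.452 and 0.335 there, and 0.840, 0.626 and 0.928 in 3-month 1. The 8 adipocyte markers together went the other way, at 1.89 in 3-month 2 and 1.05 in 3-month 1. How far sampling shaped either class was not tested. Per nucleus the *Ucp1*-low and *Ucp1*-high classes held 0.391 and 0.421 *Stx4a* UMIs in 3-month 1, and 0.296 and 0.314 in 3-month 2. In aging 1 the ratio was 1.35 (0.680 to 2.57) from 86 and 245 nuclei. Aging 2 had 18 *Ucp1*-low nuclei, too few to use, and in aging 3 the median *Ucp1* share was 0, so no class could be formed.

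Over the 3-month libraries together 0 of the 9 genes were called higher in *Ucp1*-low nuclei (3.14% of all genes) and 0 lower (1.13%). Within 3-month 2 *Stxbp3* was higher in *Ucp1*-low nuclei by 1.47-fold (1.28 to 1.70) and *Stx6* by 1.29-fold (1.18 to 1.42). In 3-month 1 the same ratios were 1.07 (0.957 to 1.20) and 0.982 (0.905 to 1.06). The macrophage markers were also higher in the *Ucp1*-low nuclei of library 2 (1.59), as were the stromal (1.48), Schwann (1.99) and adipocyte (1.89) markers, against 1.16, 1.15, 1.50 and 1.05 in library 1, and their part in these ratios was not tested.

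In aging 1, 2 of the 9 genes had 50 UMIs over both classes and 0 of them were called (8.13% of all genes were higher and 10.6% lower in *Ucp1*-low nuclei). *Stxbp3* had a ratio of 2.08 (1.07 to 3.96) there, beside Schwann markers at 4.24.

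**Figure D5:**
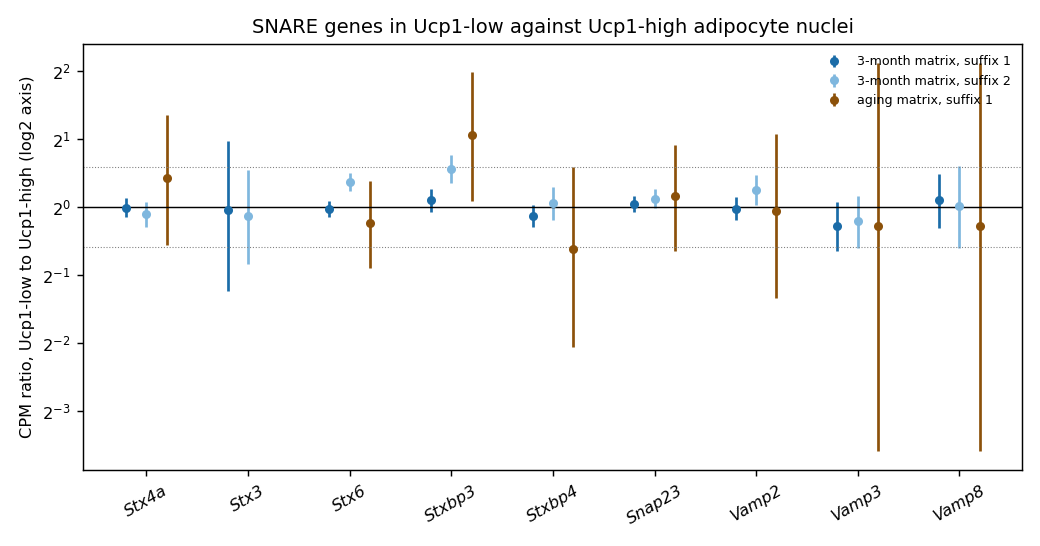
Ratio of CPM in *Ucp1*-low to *Ucp1*-high adipocyte-gated nuclei for the 9 genes in the 3 libraries with at least 50 nuclei of both classes (log2 axis), with exact 95% binomial intervals; dotted lines mark 1.5-fold. *Stx3* in aging 1 is left out (0 UMIs in the *Ucp1*-low class). The 3-month *Stx4a* points stand at 0.994 and 0.929, and *Stxbp3* in 3-month 2 at 1.47.

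Across the gated types and libraries (11 points at 3 months, 13 in the aging set, which share libraries, depth and free RNA) the genes with log2 CPM most like *Stx4a*, among 10544 with at least 200 UMIs in each matrix, were *Ankrd27*, *Tnpo2*, *Primpol*, *Gm45902* and *Cyp4v3*, with a lower Pearson r of 0.770 to 0.749. Of the other 8 members, *Stx6* alone had a positive r above 0.1 in both matrices. *Vamp2* had r = 0.62 at 3 months and -0.25 in the aging set, *Stxbp3* 0.56 and -0.48, *Snap23* 0.41 and -0.22, and *Stx6* 0.25 and 0.47. These are descriptions of few points.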

How the data were processed

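Nuclei of mouse iBAT were profiled by 10x 3′ snRNAseq. The authors counted UMIs with Cell Ranger and state that 10000 barcodes per library were forced, which the aging libraries hold, while the 3-month libraries hold 11201 and 9106. The submitters' processing notes name Cell Ranger 6.1.2, Seurat 4.1.0 and mm10. The values deposited are whole-number UMI counts per gene and barcode, 1 matrix per experiment, with no normalization. Barcodes with at least 200 UMIs and 100 genes were kept. The upper limits stated in the methods (2000 UMIs and 3000 genes) would leave 2763 of 20307 and 18756 of 30000 barcodes, and 0 of 10264 adipocyte-gated nuclei of 3-month 1, so they were an alternative only. Doublets were not called; the deepest 8% of each library were left out as an alternative.

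Nuclei were gated by the number of distinct markers with a UMI: at least 3 of a non-adipocyte list, 2 more than of any other such list and no fewer than of the adipocyte list; or at least 4 adipocyte markers, at most 2 of any other list and 2 more than it. This rule was set after marker counts and gene levels by type had been seen. A list of 8 lymphocyte markers was kept apart. The members and gene lists were chosen with earlier results of these data known. UMIs were summed per type and library (at least 50 nuclei) and expressed per 1000000 UMIs (CPM). Intervals are exact at 95%, Poisson for levels and conditional binomial for ratios. Mean log2 ratios add 0.5 counts. A gene was called at a fold of 1.5 in the same direction in every library, with 50 UMIs in all. On simulated counts this rule recovered most planted 3-fold changes in genes with many UMIs. It was not tested at folds near 1.5 or at counts near 50 UMIs. The text names the 9 genes, *Ucp1* and markers, up to 6 called pathway genes in each direction per type, and the 5 genes most like *Stx4a*. It also names *Ppargc1a*, *Dio2* and *Cidea*, for the *Ucp1* classes alone. The lymphocyte levels were added after values were seen. Some genes of the pathway lists are not reported here. Tools were Python 3.11.15, numpy 2.4.6, scipy 1.17.1, pandas 2.3.3, matplotlib 3.10.9. Coordinates are GENCODE M21 (GRCm38) and promoters RefSeq (GRCm38.p6).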

Additional observations from a re-analysis of the deposited data

Results flagged for a closer look

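A further 84 nuclei of 3-month 2 carried lymphocyte markers and entered none of the comparisons above. Members with more than 3 UMIs there are listed because they rise above what a count of 0 would allow. *Stx6* stood at 135 CPM (81.3 to 211, 19 UMIs), *Stxbp3* at 78.2 CPM (39.0 to 140, 11 UMIs) and *Snap23* at 64.0 CPM (29.2 to 121, 9 UMIs). *Stx4a*, *Vamp2* and *Vamp3* each stood at 28.4 CPM (7.75 to 72.8, 4 UMIs). *Stx3* had 0 UMIs, and 3 counts would be 21.3 CPM. The 8 adipocyte markers summed to 1414 CPM in the same nuclei, and their part was not tested.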

How the results depend on the processing

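Of 77 recomputed main values, 60 stayed and 17 moved; of 810 recomputed gene ratios, 737 stayed, 68 moved and 5 reversed. At 3 months the main counts were 4 gene-type pairs higher and 15 lower in adipocytes. The stated upper limits gave 2 and 2, thinning to 500 UMIs gave 2 higher, a fold of 2 gave 1 and 9, and library 2 alone gave 24 lower. In the aging matrix (2 higher and 7 lower) 1 more marker gave 4 higher, leaving out the deepest nuclei 5 higher, the ratio pooled over libraries 6 and 13, the upper limits 4 lower, thinning 3 lower, library 1 alone 13 lower and library 3 alone 5 higher. The *Stx4a* ratio of the 3-month libraries was 0.903 on thinned nuclei and 0.695 per nucleus. That of aging 3 to 1 was 0.695 under the upper limits, from 45 and 187 nuclei. The reversed log2 ratios of adipocytes were, under the upper limits, *Stx3* and *Stxbp3* to mural cells (0.093 and 0.043), and on thinned nuclei *Vamp2* and *Vamp3* to muscle (-0.017 and -0.57) and *Stxbp4* to Schwann cells (0.063). The causes were not tested. The *Stx4a* ratio between *Ucp1* classes kept within its interval under the other gates, classes and depths run. The upper limits gave no 3-month ratio of *Stx4a*, since 3-month 1 has no adipocyte nucleus under them. No paired analysis was possible because the labels carry no shared replicate numbers and suffixes are not tied to samples. Depth limits the aging adipocytes, with 0 to 155 UMIs for each of the 9 genes, and also small groups such as the 3-month 1 macrophages (1 to 55 UMIs).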
